A study of Homo sapiens with 6 samples.

Results

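Transcripts of 10 genes of heme degradation and iron handling were followed in RNA sequencing libraries labelled HT1197, an established human bladder carcinoma line. The genes were HMOX1, HMOX2, BLVRA, BLVRB, ALAS1, FECH, FTH1, FTL, TFRC and SLC40A1. All 10 of them had a row among the 22718 genes of the count and FPKM tables, and all 10 were tested. They were chosen by function from genes whose response to the drug in these libraries was already known, so the difference between the arms is given for them as a description and supports nothing beyond itself. The study set 3 libraries of cells held for 48 hours in panobinostat, an inhibitor of histone deacetylases, at 2 times the IC50 that the labels ascribe to the line, against 3 libraries of cells held for the same time in vehicle (1% DMSO). Cells had been seeded at 1000000 per dish of 10 cm a day before. The condition label of the vehicle libraries reads untreated, and no percent of DMSO is recorded for the panobinostat arm. The comparison asks how transcripts of these cells differ under the inhibitor. The labels speak of triplicate dishes of 1 line without saying which library came from which dish. A p-value here therefore reflects variation among the 3 libraries of an arm, and that variation may be technical. Each arm holds libraries A, B and C, and values below follow that order.

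Heme is opened by heme oxygenase, which has an inducible form (HMOX1) and a constitutive form (HMOX2), into biliverdin, carbon monoxide and iron. Biliverdin reductase A (BLVRA) then reduces this biliverdin to bilirubin. Biliverdin reductase B (BLVRB) acts on other isomers of biliverdin and on flavins. Heme is made in a chain that starts with aminolevulinate synthase (ALAS1) and ends when ferrochelatase (FECH) inserts iron. Iron enters cells through the transferrin receptor (TFRC), is stored in a shell of ferritin heavy (FTH1) and light (FTL) chains, and leaves through ferroportin (SLC40A1). Iron regulatory proteins bind hairpins called iron-responsive elements when iron is scarce. They block translation where the hairpin lies before the coding sequence and stabilise the transcript where it lies after it.

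Those hairpins are shown because they divide the iron genes by the kind of control they carry. A pattern of an unpaired C, a stem of 5 pairs and the loop CAGTGN was searched in the GENCODE 29 transcripts of 19684 protein-coding genes, and 291 of them (1.48%) held it in some transcript. Of the 10 genes searched, 4 held it. The lines give 30 bases around each hairpin, read 5′ to 3′ as DNA letters on the transcript strand, with the loop in capitals. FTH1, FTL and SLC40A1 hold 1 match each before the coding sequence, and TFRC holds 4 after it. The pattern allows no other loop and no unpaired base in the stem. An element that departs from it is missed, in these genes and in the others.
FTH1: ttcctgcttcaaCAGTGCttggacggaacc
FTL: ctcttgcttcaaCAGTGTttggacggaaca
SLC40A1: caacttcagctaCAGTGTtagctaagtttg
TFRC hairpin 1: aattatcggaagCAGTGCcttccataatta
TFRC hairpin 2: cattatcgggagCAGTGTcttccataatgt
TFRC hairpin 3: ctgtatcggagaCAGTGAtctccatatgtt
TFRC hairpin 4: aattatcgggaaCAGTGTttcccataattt
The levels below are of transcripts, and translation was not measured.

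Promoters of 3 genes are printed as well, since BLVRB and SLC40A1 were among the genes that differed most and BLVRA is the sister enzyme of BLVRB. They are the 250 bases before the start in RefSeq (GRCh38.p14), read 5′ to 3′ on the gene's strand, with GC boxes, and the CCAAT box of BLVRA, in capitals. A GC box was searched as GGGCGG on both strands, so it also reads CCGCCC, and 42.6% of 35116 promoters of that length held it. BLVRB lies on chromosome 19 and its window spans chr19:40465746-40465995 on the minus strand. The window of BLVRA spans chr7:43758430-43758679 on the plus strand, and that of SLC40A1 spans chr2:189580787-189581036 on the minus strand. Positions are counted from the RefSeq start, which can differ from the GENCODE gene spans given below. The SLC40A1 window lies inside its GENCODE span, and the BLVRB window overlaps the edge of its span.
BLVRB: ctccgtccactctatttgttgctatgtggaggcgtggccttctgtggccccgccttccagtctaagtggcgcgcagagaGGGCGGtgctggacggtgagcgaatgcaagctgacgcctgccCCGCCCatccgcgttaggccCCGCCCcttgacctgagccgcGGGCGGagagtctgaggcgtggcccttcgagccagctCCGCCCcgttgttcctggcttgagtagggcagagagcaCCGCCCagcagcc
BLVRA: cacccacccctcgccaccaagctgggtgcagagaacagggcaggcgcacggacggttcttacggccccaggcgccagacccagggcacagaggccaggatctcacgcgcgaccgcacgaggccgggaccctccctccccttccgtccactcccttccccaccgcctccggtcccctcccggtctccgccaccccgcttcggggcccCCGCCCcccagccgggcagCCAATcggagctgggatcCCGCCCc
SLC40A1: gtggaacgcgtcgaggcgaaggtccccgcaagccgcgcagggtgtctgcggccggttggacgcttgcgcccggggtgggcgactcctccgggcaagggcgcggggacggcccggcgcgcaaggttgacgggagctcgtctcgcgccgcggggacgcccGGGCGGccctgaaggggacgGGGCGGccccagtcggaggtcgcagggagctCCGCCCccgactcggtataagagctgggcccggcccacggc
BLVRB had 6 GC boxes, starting at −171, −129, −109, −88, −51 and −13 from the start, and 2.22% of all promoters had 6 or more. BLVRA had 2 (−44 and −7) and SLC40A1 had 3 (−92, −72 and −41). BLVRA also had a CCAAT box (CCAAT, on both strands) at −25, a motif that 32.0% of promoters held. TATAAA, found in 10.7% of promoters, was in none of these 3 windows. TFRC had it at −33 and ALAS1 at −234. TGACNNNGC, the core of the antioxidant response element through which NRF2 acts, was in 10.9% of promoters, in FECH at −38 and in no other window of HMOX2, BLVRA, BLVRB, ALAS1, FECH, FTL, TFRC or SLC40A1. HMOX1 and FTH1 had no window among the promoters used, so theirs were not searched for any motif. The windows of BLVRB, BLVRA and SLC40A1 had 21, 23 and 38 CpG, against a median of 11 over all promoters. A match of letters is a description of the window.

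Library totals ran from 13417898 to 18186087 counts in panobinostat and from 14287080 to 18095984 in vehicle, and 3 counts stood for 0.165 to 0.224 CPM, the library-scaled count used below. Few markers of the labelled tissue were present. Of 20 urothelial markers 11 had a row, and only GATA3 reached 10 FPKM in vehicle and none did in panobinostat. The summed level of the urothelial list was 11.7 to 15.5 FPKM in panobinostat libraries and 11.04 to 15.26 FPKM in vehicle libraries, and UPK1B, FOXA1 and TP63 were at 0 in vehicle. Of 12 markers of adrenergic neuroblasts, a list drawn up with these tables known, 9 reached 10 FPKM in panobinostat and 11 in vehicle, with summed levels of 1515 to 1607 FPKM in panobinostat and 1839 to 2117 FPKM in vehicle. These markers go against the labelled bladder carcinoma identity. Whether the cells were HT1197 was not tested, so the libraries are called by their label. Among cells known for heme turnover, the erythroid list had 3 of 12 markers with a row and summed to 1.26 to 1.33 FPKM in panobinostat and 0 to 0.0879 FPKM in vehicle, with 2 of the 3 at 0 in vehicle. The macrophage list had 4 of 12 and summed to 0.522 to 0.922 FPKM in panobinostat and 0.612 to 1.09 FPKM in vehicle, a sum that holds opposite changes at low counts. CSF1R (35 counts in panobinostat, 2 in vehicle) and PTPRC (45 in panobinostat, 5 in vehicle) rose, and LYZ (21 in panobinostat, 72 in vehicle) fell. The hepatocyte list had 2 of 10 and stayed at or under 0.096 FPKM in panobinostat and 0.0698 FPKM in vehicle. The part of these cell types in the results below was not tested, and in bulk RNA a change in the number of cells of a type and a change in RNA per cell cannot be told apart.

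Of the 10 genes, 5 passed the threshold (adjusted p of 0.05 or less in edgeR's quasi-likelihood test, with Benjamini-Hochberg adjustment over all genes tested) and all 5 were higher in panobinostat. They were HMOX1, BLVRB, FECH, FTL and SLC40A1, and of these HMOX1, BLVRB and SLC40A1 were higher by 2-fold or more, as were 16.8% of all genes tested. None was lower and 5 did not pass. The drug moved most of the transcriptome, since 10482 of 16084 tested genes passed (65.2%), 5416 of them higher (33.7%) and 5066 lower (31.5%). The share of the 10 genes that passed was not above that background. The median log2 fold change of the 10 genes was 0.15, against 0.01 over all genes tested. The libraries of the arms did not overlap in those 5 genes, all higher in panobinostat. Over all tested genes the arms did not overlap in 68.8%, with panobinostat higher in 35.5%.

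**Figure D1:**
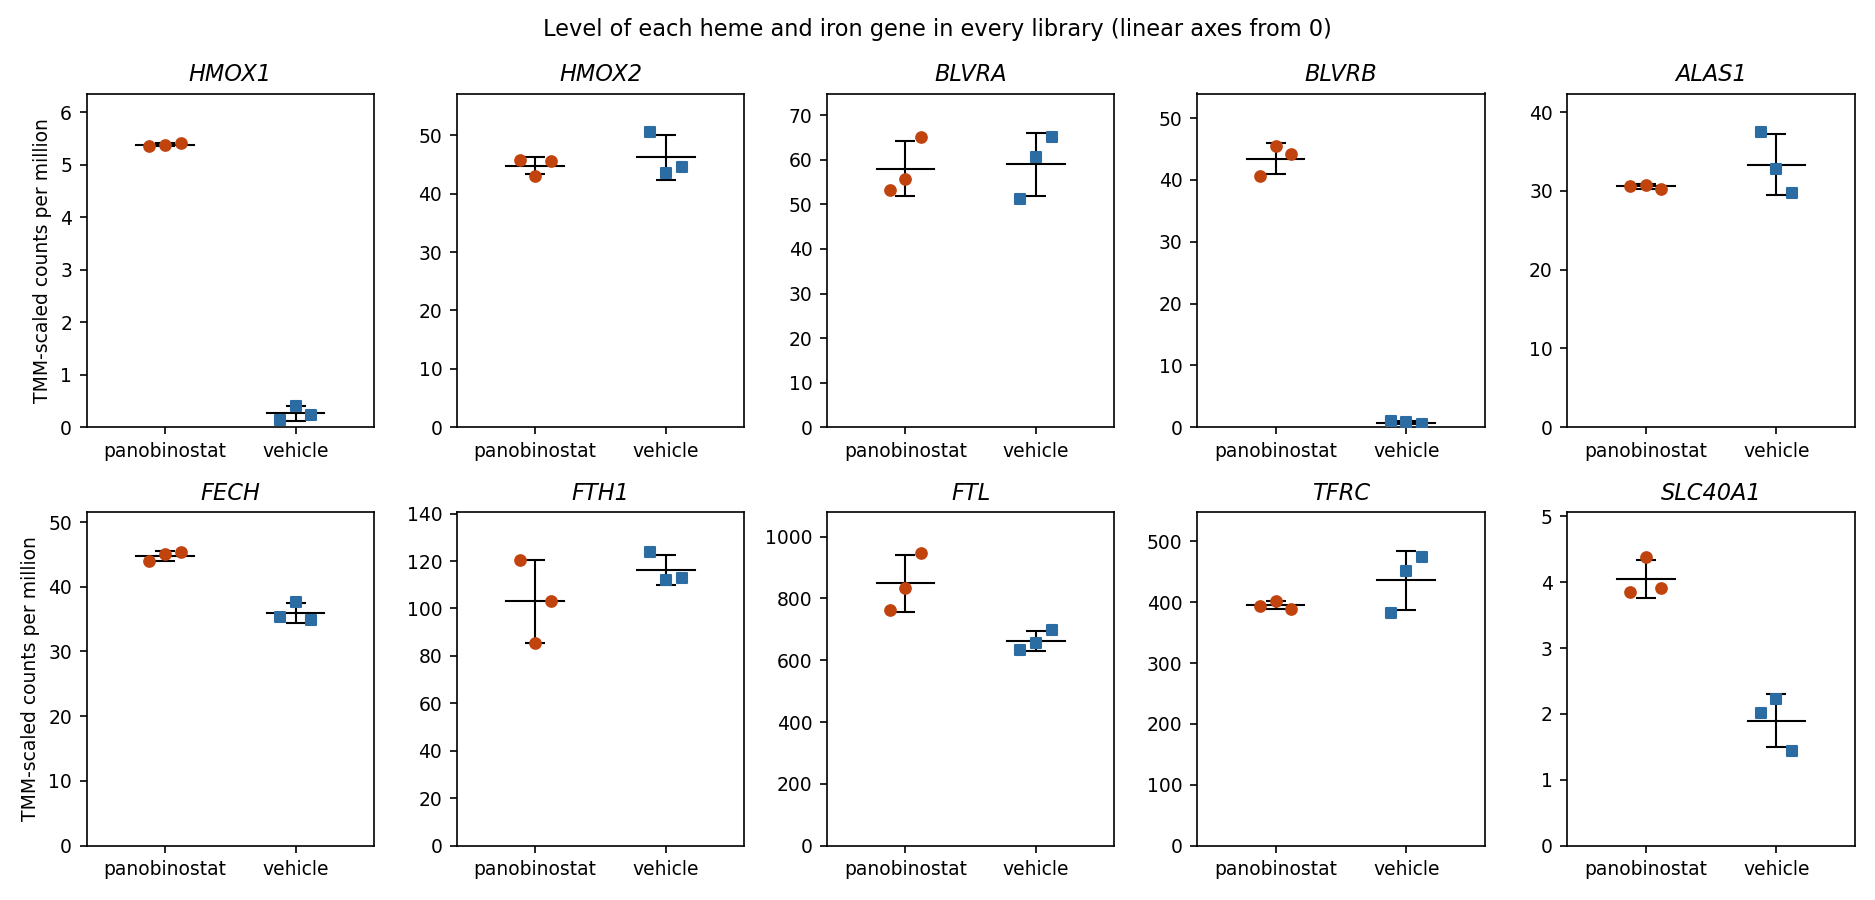
TMM-scaled CPM of the 10 genes in each library, with panobinostat (circles) and vehicle (squares) in a panel per gene on a linear axis from 0; horizontal lines are means and bars are SDs (n = 3 each). HMOX1 and BLVRB stand near 0 in vehicle and far above it in panobinostat, while HMOX2, BLVRA, ALAS1, FTH1 and TFRC overlap between the arms.

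HMOX1, the inducible heme oxygenase (chromosome 22, 35380361 to 35394214, GRCh38, plus strand), had 75, 91 and 101 counts in panobinostat libraries and 2, 7 and 4 in vehicle libraries. Scaled to the library these were 5.35, 5.38 and 5.41 CPM in panobinostat and 0.144, 0.410 and 0.231 CPM in vehicle. Every vehicle library was below all 3 panobinostat libraries. The coefficient of variation among those 3 was 0.54%. That is narrower than counting error at 75 to 101 counts, so it is not a measure of precision. HMOX1 rose 19.5-fold, a log2 fold change of 4.29 ± 0.29 (SE, n = 3 each, adjusted p = 1.09e-08, edgeR). The vehicle arm rests on 13 counts in all, so its level is known poorly, and the fold was 26.9 without vehicle library B and 16.4 without vehicle library A. Per length the gene was still a modest transcript, at 2.32 ± 0.0129 FPKM in panobinostat and 0.104 ± 0.0533 FPKM in vehicle (SD, n = 3 each). The SD in panobinostat is likewise narrower than counting error.

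HMOX2, the constitutive heme oxygenase (chromosome 16, 4474690 to 4510347, plus strand), had 45.8, 43.1 and 45.5 CPM in panobinostat and 50.6, 43.5 and 44.7 CPM in vehicle. The arms overlap, and the log2 fold change of −0.04 ± 0.08 did not pass (adjusted p = 0.658, edgeR), with a 95% interval of −0.22 to 0.14 and a value of 0.07 when scaled by library size alone. HMOX1 therefore supplied 15.6%, 16.5% and 15.8% of the summed heme oxygenase FPKM in panobinostat libraries, against 0.447%, 1.47% and 0.809% in vehicle libraries. HMOX2 was the larger part in all 6 libraries. The sum of both was 14.6 ± 0.365 FPKM in panobinostat and 11.8 ± 1.04 FPKM in vehicle (SD, n = 3 each). FPKM is scaled by library total without TMM, which sets panobinostat higher against vehicle than the CPM values do.

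BLVRB, the reductase of biliverdin and flavins (chromosome 19, 40447765 to 40465840, minus strand), showed the widest difference of the list. It had 570, 768 and 826 counts in panobinostat libraries and 13, 13 and 9 in vehicle libraries. These were 40.7, 45.4 and 44.3 CPM in panobinostat and 0.938, 0.761 and 0.520 CPM in vehicle. Every panobinostat library was above 40 CPM and every vehicle library was under 1 CPM. BLVRB rose 59.3-fold, a log2 fold change of 5.89 ± 0.16 (SE, n = 3 each, adjusted p = 9.17e-13, edgeR). The promoter with 6 GC boxes printed above is that of this gene.

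BLVRA, the main biliverdin reductase of adult tissue (chromosome 7, 43758680 to 43807342, plus strand), had 53.3, 55.8 and 65.1 CPM in panobinostat and 51.2, 60.7 and 65.2 CPM in vehicle. The arms overlap over nearly their whole range. The log2 fold change of −0.02 ± 0.10 did not pass (adjusted p = 0.848, edgeR), with a 95% interval of −0.24 to 0.19, and it was 0.09 when scaled by library size alone. BLVRB made up 45.5%, 47.1% and 42.7% of the summed biliverdin reductase FPKM in panobinostat libraries, against 1.96%, 1.35% and 0.865% in vehicle libraries. The sum of both reductases was 60.2 ± 3.95 FPKM in panobinostat and 31.5 ± 3.40 FPKM in vehicle (SD, n = 3 each), again without TMM. The substrates of the enzymes differ, so the share and the sum describe transcripts and not capacity for a shared step. In each of these pairs 1 gene differed widely between the arms and the other did not pass.

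**Figure D2:**
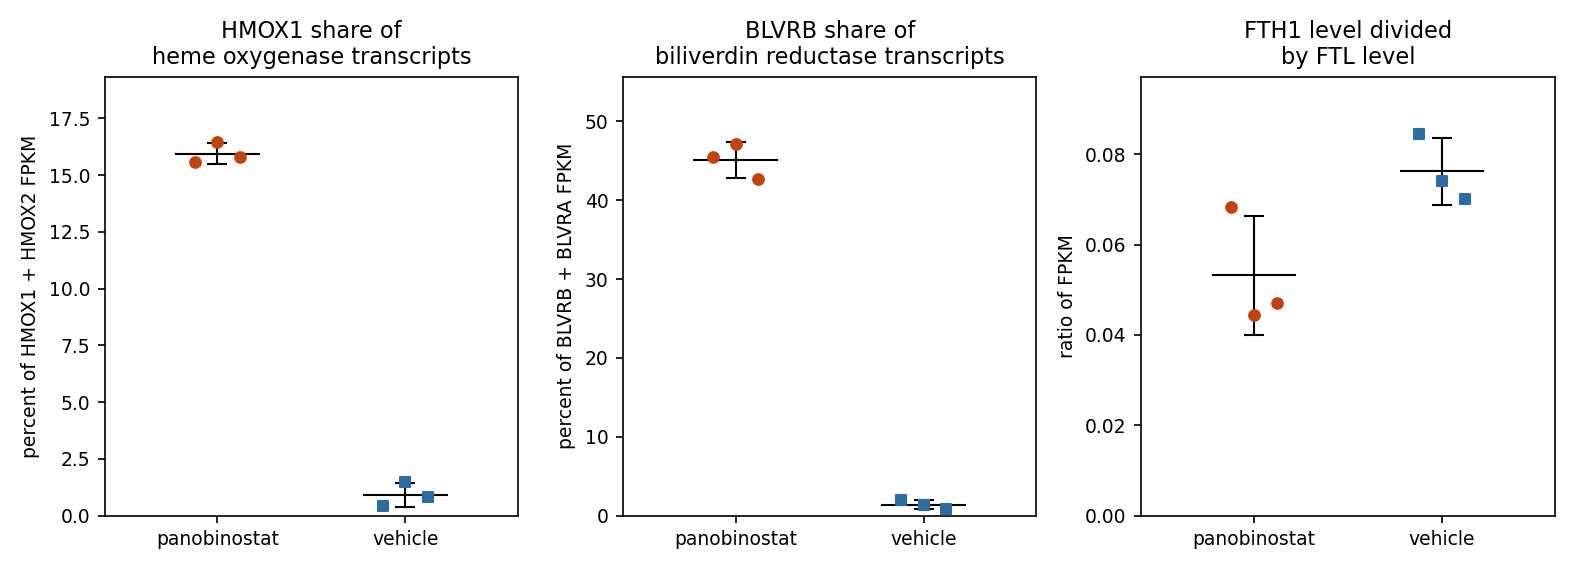
Share of HMOX1 in the summed FPKM of HMOX1 and HMOX2, share of BLVRB in the summed FPKM of BLVRB and BLVRA (both in percent), and ratio of FTH1 to FTL FPKM, in each panobinostat (circles) and vehicle (squares) library with mean and SD (n = 3 each), on axes from 0. HMOX1 averaged 15.9% in panobinostat and 0.907% in vehicle, BLVRB averaged 45.1% in panobinostat and 1.39% in vehicle, and the FTH1 to FTL ratio was 0.0533 in panobinostat and 0.0762 in vehicle.

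The genes of heme synthesis moved little. ALAS1, the rate-limiting first enzyme outside red cells (chromosome 3, 52198086 to 52214327, plus strand), had 30.7, 30.8 and 30.2 CPM in panobinostat and 37.4, 32.8 and 29.8 CPM in vehicle. Vehicle library A was above the rest and vehicle library C below all panobinostat libraries, so the arms overlap. The log2 fold change of −0.12 ± 0.09 did not pass (adjusted p = 0.268, edgeR), with a 95% interval of −0.33 to 0.08, and it was 0.02 with upper quartile scaling.

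FECH, the last enzyme of the chain (chromosome 18, 57548283 to 57586772, minus strand), had 44.0, 45.0 and 45.3 CPM in panobinostat and 35.4, 37.7 and 34.9 CPM in vehicle. All panobinostat libraries were above all vehicle libraries. FECH rose 1.24-fold, a log2 fold change of 0.32 ± 0.08 (SE, n = 3 each, adjusted p = 0.00259, edgeR). Of 6 other tested genes of heme synthesis, 3 rose, 1 fell and 2 did not pass. PPOX and CPOX, which act late in the chain, rose by log2 values of 0.58 ± 0.11 and 0.55 ± 0.10. UROD, uroporphyrinogen decarboxylase, fell to 48.8 ± 6.19 CPM in panobinostat, against 76.4 ± 5.47 CPM in vehicle (SD, n = 3 each).

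**Figure D3:**
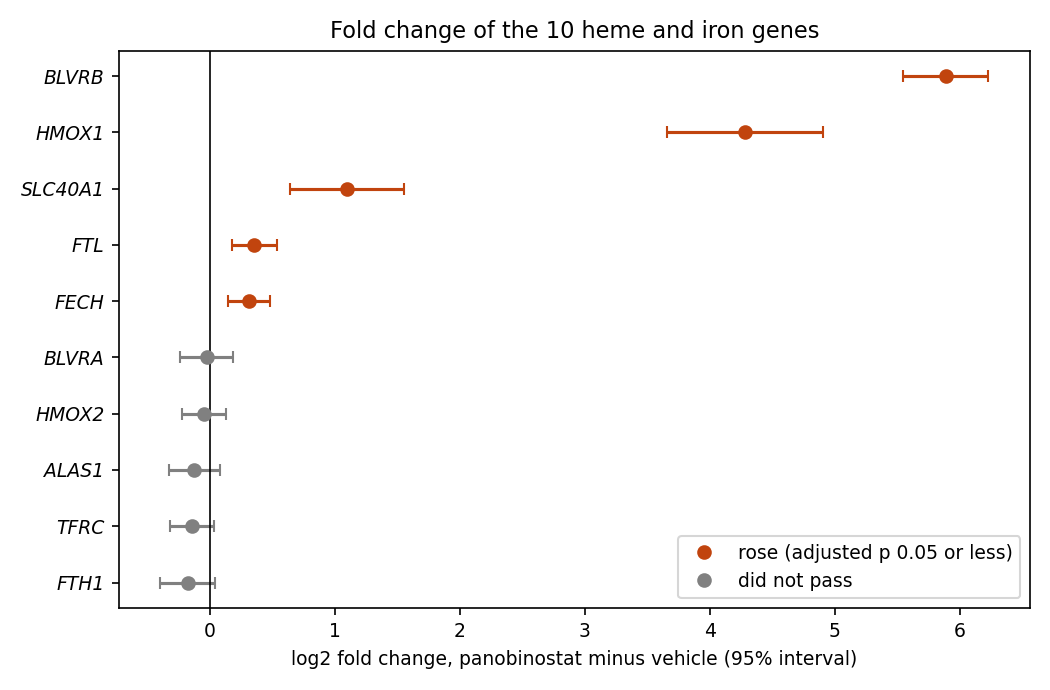
log2 fold change, panobinostat minus vehicle, of the 10 genes with 95% intervals from the fit over 6 libraries (orange, past the threshold; grey, not). BLVRB (5.89) and HMOX1 (4.29) stand apart, SLC40A1 follows at 1.10, and the remaining genes lie between −0.17 and 0.36.

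FTL was the most abundant transcript of the list per length. FTL, the light chain (chromosome 19, 48965301 to 48966878, plus strand), had 763.1, 834.5 and 948.3 CPM in panobinostat and 633.1, 655.2 and 696.8 CPM in vehicle. The lowest panobinostat library was above the highest vehicle library. FTL rose 1.28-fold, a log2 fold change of 0.36 ± 0.08 (SE, n = 3 each, adjusted p = 0.00175, edgeR), and stood at 1003 ± 101 FPKM in panobinostat and 723.9 ± 31.3 FPKM in vehicle (SD, n = 3 each). The FPKM means lie further apart than the fold, since FPKM lacks TMM scaling. With library size alone the log2 fold change of FTL was 0.47.

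FTH1, the heavy chain that oxidises iron for storage (chromosome 11, 61959718 to 61967660, minus strand), had 120.6, 85.6 and 103.1 CPM in panobinostat and 123.7, 112.1 and 113.0 CPM in vehicle. Panobinostat library A lay within the vehicle range and the other panobinostat libraries lay below it. The log2 fold change of −0.17 ± 0.10 did not pass (adjusted p = 0.147, edgeR), with a 95% interval of −0.39 to 0.04. Without panobinostat library A it was −0.30 and passed (adjusted p = 0.0071, edgeR). The FTH1 to FTL ratio in FPKM was 0.0684, 0.0444 and 0.0470 in panobinostat libraries and 0.0845, 0.0740 and 0.0702 in vehicle libraries, with no overlap. Summed ferritin was 1055 ± 97.1 FPKM in panobinostat and 779 ± 29.3 FPKM in vehicle (SD, n = 3 each), without TMM scaling.

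The ferritin levels are uncertain, since both genes share sequence with processed copies. Of the 50-base windows of the FTH1 transcript, 477 of 1180 (40.4%) also occurred in transcripts of 15 other genes, nearly all of them FTH1 pseudogenes. For FTL it was 152 of 829 (18.3%), shared with FTLP2 and FTLP3. HMOX1 shared 0.62% of its windows and the other 7 genes shared none. The 9 FTH1 copies with a row took 3.21% to 4.36% of the counts of FTH1 and its copies in panobinostat and 2.06% to 2.59% in vehicle, and the 2 FTL copies took 0.187% to 0.377% in panobinostat and 0.227% to 0.347% in vehicle. BEST1, a chloride channel gene that overlaps FTH1 on the opposite strand, rose by a log2 value of 2.79 ± 0.16, with 2184 counts in panobinostat and 310 in vehicle. Counting used strand, and the part of these values in the FTH1 result was not tested.

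TFRC, the transferrin receptor (chromosome 3, 196027183 to 196082189, minus strand), had 394.4, 401.5 and 389.5 CPM in panobinostat and 381.7, 451.3 and 474.6 CPM in vehicle. The panobinostat libraries were close together and vehicle library A lay below them while the other vehicle libraries lay above. The log2 fold change of −0.14 ± 0.08 did not pass (adjusted p = 0.145, edgeR), with a 95% interval of −0.32 to 0.04. Without vehicle library A it was −0.24 and passed (adjusted p = 0.007, edgeR).

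SLC40A1, the only known iron exporter (chromosome 2, 189560579 to 189583758, minus strand), had 54, 74 and 73 counts in panobinostat libraries and 28, 38 and 25 in vehicle libraries. These were 3.85, 4.38 and 3.91 CPM in panobinostat and 2.02, 2.22 and 1.44 CPM in vehicle, and the arms did not overlap. SLC40A1 rose 2.14-fold, a log2 fold change of 1.10 ± 0.21 (SE, n = 3 each, adjusted p = 0.000359, edgeR). Per length it was the lowest of the list in panobinostat, at 0.970 ± 0.073 FPKM in panobinostat and 0.421 ± 0.090 FPKM in vehicle (SD, n = 3 each). Set against TFRC, the ratio of ferroportin to transferrin receptor in FPKM was 0.0187 ± 0.00108 in panobinostat and 0.00805 ± 0.0022 in vehicle. In order of mean FPKM the vehicle arm ran FTL, FTH1 and TFRC, BLVRA, ALAS1 and HMOX2, FECH, BLVRB and SLC40A1, and HMOX1, with FTH1 and TFRC, ALAS1 and HMOX2, and BLVRB and SLC40A1 each within their spread. In panobinostat BLVRB stood at 27.1 ± 1.48 FPKM, next below BLVRA at 33.1 ± 3.21 FPKM (SD, n = 3 each).

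Not all 4 genes with a match to the hairpin pattern passed the threshold. Of the 3 with the match before the coding sequence, FTL and SLC40A1 rose and FTH1 had a log2 value of −0.17 that did not pass. TFRC, with 4 matches after the coding sequence, had −0.14 that did not pass. The proteins that bind the hairpins were ACO1 and IREB2. ACO1 had 61.0 ± 2.09 CPM in panobinostat and 56.5 ± 3.62 CPM in vehicle (log2 0.11 ± 0.08), and IREB2 had 182.9 ± 3.44 CPM in panobinostat and 195.6 ± 11.4 CPM in vehicle (log2 −0.10 ± 0.07). FBXL5, the iron sensor that marks IREB2 for degradation, had a log2 value of 0.02 ± 0.08. None of these passed, though ACO1 did under 5 of 17 alternatives, namely library size alone (0.22), upper quartile scaling (0.25) and the 3 limma fits (0.20 to 0.22). Library size alone moved the median of all genes by 0.11 and the value of IREB2 to 0.02. CUL1, a scaffold of the ubiquitin ligase that FBXL5 works in, fell to 57.3 ± 3.78 CPM in panobinostat, against 125.4 ± 2.53 CPM in vehicle.

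Transcripts known to control HMOX1 differed in part. MAFK, a small Maf protein that pairs with NRF2 or with the heme sensor BACH1, rose to 4.37 ± 0.835 CPM in panobinostat, against 0.489 ± 0.186 CPM in vehicle (log2 3.11 ± 0.30). MAFF and MAFG, of the same family, rose by log2 values of 1.76 ± 0.19 and 0.85 ± 0.08. KEAP1, which holds NRF2 for degradation, fell to 80.7 ± 10.6 CPM in panobinostat, against 153.7 ± 4.12 CPM in vehicle (log2 −0.93 ± 0.09). NFE2L2, which encodes NRF2, rose to 124.1 ± 9.36 CPM in panobinostat, against 90.2 ± 7.67 CPM in vehicle (log2 0.46 ± 0.08). BACH1, a repressor of HMOX1 that heme removes, had 211.7 ± 2.999 CPM in panobinostat and 208.9 ± 14.9 CPM in vehicle and did not pass (log2 0.02 ± 0.07, 95% interval −0.14 to 0.17). Of the 11 tested genes of this list, 4 rose, 2 fell and 5 did not pass.

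Across the lists written for heme and iron handling, 87 genes outside the 10 were tested, of 111 listed and 97 with a row. Of these 25 rose (28.74%), 31 fell (35.63%) and 31 did not pass, against 33.7% higher and 31.5% lower among all tested genes, and their median log2 fold change was −0.02. Of 10 tested genes of heme transport and bilirubin clearance, 4 rose and 6 fell. SLC48A1, which carries heme out of the lysosome, rose to 32.5 ± 2.27 CPM in panobinostat, against 15.7 ± 3.15 CPM in vehicle. FLVCR1, a plasma membrane transporter first described as a heme exporter, fell to 40.2 ± 1.37 CPM in panobinostat, against 64.7 ± 5.29 CPM in vehicle. ABCB6, a porphyrin transporter, rose by a log2 value of 0.66 ± 0.16, and SLC25A38, the mitochondrial glycine carrier of heme synthesis, fell by 0.66 on the log2 scale. FLVCR2, named after its values were seen, also rose, with 46 counts in panobinostat and 0 in vehicle.

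Of 6 other tested genes of iron uptake, 3 rose and 3 fell. SLC22A17, a receptor for siderophore-binding lipocalin, rose to 31.2 ± 2.45 CPM in panobinostat, against 13.6 ± 1.75 CPM in vehicle. STEAP3, the endosomal reductase that works with the transferrin receptor, fell to 15.5 ± 0.782 CPM in panobinostat, against 33.0 ± 3.41 CPM in vehicle. Of the metal importers SLC39A8 and SLC39A14, SLC39A8 rose by a log2 value of 0.52 ± 0.11 and SLC39A14 fell by 0.50. Of the export list NEO1, a co-receptor of the hepcidin pathway, rose by 0.33 ± 0.09 and 1 further gene did not pass.

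The poly(C)-binding proteins include chaperones that hand iron to ferritin. PCBP1 fell to 66.6 ± 3.70 CPM in panobinostat, against 104.1 ± 8.002 CPM in vehicle, and PCBP2 fell to 57.7 ± 1.26 CPM in panobinostat, against 94.0 ± 3.72 CPM in vehicle. PCBP4 fell as well (log2 −0.52 ± 0.09) and PCBP3 rose (log2 0.80 ± 0.12). NCOA4, the receptor that carries ferritin to the lysosome, had 338.4 ± 1.95 CPM in panobinostat and 344.8 ± 13.8 CPM in vehicle and did not pass (log2 −0.03 ± 0.07, and 0.09 with library size alone). In this list 1 of 6 tested genes rose, 4 fell and 1 did not pass.

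Of 21 tested genes of mitochondrial iron and iron-sulfur cluster assembly, 5 rose, 7 fell and 9 did not pass. NFS1, the desulfurase that supplies sulfur, rose (log2 0.72 ± 0.11), as did CISD1 (0.66 ± 0.09), while the ferredoxin FDX2 fell at a low level (−1.02 ± 0.28). Of 10 genes of cytosolic cluster assembly none rose and 5 fell, with CIAO3 (−0.61 ± 0.11) and NUBP1 (−0.39 ± 0.09) the widest. Of 10 tested genes of ferroptosis, iron-dependent death by lipid peroxidation, 4 rose and 2 fell. SLC7A11, the cystine importer, rose to 198.2 ± 13.7 CPM in panobinostat, against 86.6 ± 27.4 CPM in vehicle. GCH1 (0.85 ± 0.09) and LPCAT3 (0.84 ± 0.10) rose, DHODH fell (−0.32 ± 0.12) with arms that overlap, and GPX4, the lipid peroxide reductase, did not pass (0.14 ± 0.07, adjusted p = 0.102, edgeR) but did under 7 of 17 alternatives. These were library size alone (0.25), upper quartile scaling (0.28), the filter at 1 CPM (0.17), the 3 limma fits and the fit without vehicle library A (0.18).

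**Figure D4:**
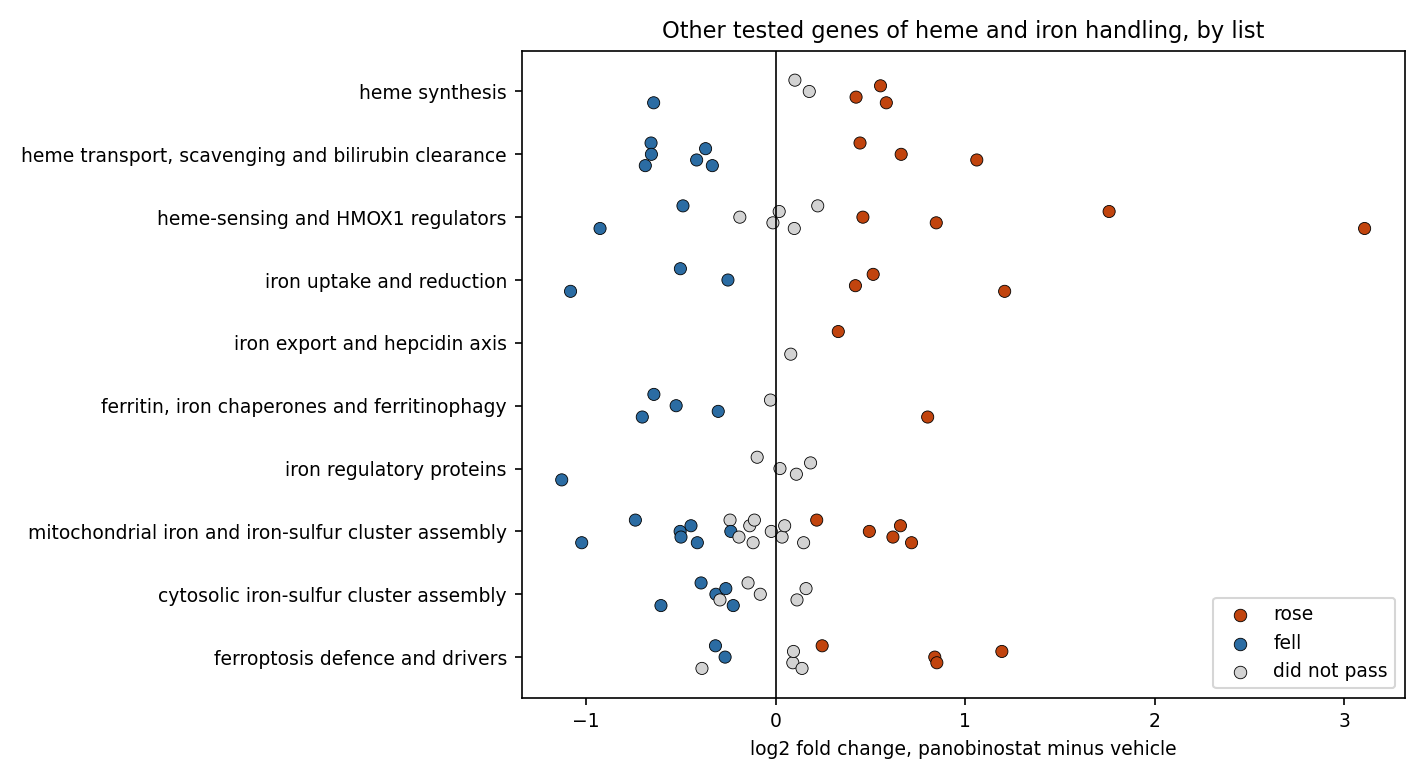
log2 fold change, panobinostat minus vehicle, of each tested gene of the heme and iron lists other than the 10 genes, 1 row per list, coloured by whether it rose, fell or did not pass. Both directions occur in most lists, with 25 rises and 31 falls over 87 genes; FLVCR2, which had 0 vehicle counts, is not drawn.

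The genes beside HMOX1 and BLVRB fell, rose by less or did not pass. MCM5, a replication helicase subunit 5849 bases beyond HMOX1, fell to 111.5 ± 4.04 CPM in panobinostat, against 282.0 ± 11.3 CPM in vehicle, and TOM1 on the other side did not pass (log2 0.19 ± 0.10). SPTBN4, 401 bases beyond BLVRB, fell by 0.39 on the log2 scale, and SERTAD3, 3060 bases away on the other side, rose by a log2 value of 0.78 ± 0.15. Of 20 nearest tested protein-coding neighbours that do not overlap the 10 genes, 2 rose, 6 fell and 12 did not pass. Among all genes tested 33.7% were higher and 31.5% lower. The part of location in these values was not tested. Besides SERTAD3, RAB3IL1 beside FTH1 rose (log2 1.04 ± 0.19). Of the overlapping protein-coding genes, BEST1 rose, as given above for FTH1, and NMRAL1, on the opposite strand to HMOX2, did not pass (log2 −0.18 ± 0.08).

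Over the 6 libraries, the genes whose centred log2 CPM lay nearest to HMOX1 by Euclidean distance were PTGES (0.27), SEPT14 (0.35) and TRPM4 (0.36). Those nearest to BLVRB were RTBDN (0.26), TNFRSF10B (0.30) and PCP4L1 (0.37). RTBDN, TNFRSF10B and PCP4L1 rested on 5, 2 and 4 vehicle counts, so their match with BLVRB in vehicle is poorly known. Their fitted folds were 116.9, 159.3 and 106.1, against 59.3 for BLVRB. The distances used log2 CPM with a prior count of 2, which narrows differences at low counts.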

How the data were processed

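Counts per gene and FPKM of total RNA from 6 libraries were used. The deposited counts come from featureCounts, version 1.5.0-p3 per the file headers and 1.5.1 per the submitters' processing notes, run on Ensembl 84 genes with strand option 2. The notes also name Novoalign 2.8, Subread and hg38. The header names 9 alignment files; the 6 with columns were used and the others were not analysed here. The deposited FPKM values are the authors' own, and where a gene had at least 100 counts, 53265 of 53265 matched count over length and total to 1%, so both units are 1 measurement. Symbols and coordinates came from GENCODE 29 (22459 of 22718 rows).

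Counts were tested with edgeR 4.0.16 in R 4.3.3: filterByExpr (minimum count 10, total 15), TMM, a quasi-likelihood test between the arms on 6 libraries, Benjamini-Hochberg over 16084 genes, call at 0.05. The SE is the log2 fold change divided by the root of F, and CPM means and SDs use TMM scaling. FPKM was used for levels between genes. Intervals and floors cover counting or model error only. The steps were run on simulated counts in which few genes changed, evenly in both directions. That run does not cover data in which most genes pass.

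The 10 genes, the pathway and marker lists and the tests were chosen with earlier results of these data known. The named genes were all 10, up to 4 others per list (called, mean at least 1 CPM, ordered by size of change), 9 fixed regulators, nearest neighbours, and the 3 genes most like HMOX1 and BLVRB. Some genes that this rule takes are not reported here. Alternatives were DESeq2 1.42.0, other scalings and filters, an adjusted p of 0.01, limma 3.58.1 on log2(FPKM + 1) and log2(FPKM + 0.1), the letter as a block, and each library left out.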

Additional observations from a re-analysis of the deposited data

How the results depend on the processing

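HMOX1, BLVRB, FECH, FTL and SLC40A1 kept their direction and call under every alternative that gave a value. The exceptions to the counts were that 4 of the 10 genes were higher with the filter at 1 FPKM, which removes SLC40A1, and that 0 to 1 were lower with a library left out (FTH1 without panobinostat library A, TFRC without vehicle library A). The log2 fold change ranged over the alternatives from 1.59 to 4.75 for HMOX1, 4.30 to 6.06 for BLVRB, 0.28 to 0.45 for FECH, 0.27 to 0.50 for FTL and 0.47 to 1.24 for SLC40A1, the low ends of HMOX1 and BLVRB being with a pseudocount of 1 FPKM. Genes near 0 changed sign. With library size alone, upper quartile scaling, limma at a pseudocount of 0.1, and limma at 1 with or without a filter, HMOX2 was 0.0675, 0.094, 0.0677, 0.0628 and 0.0628, BLVRA 0.0887, 0.1147, 0.0897, 0.0871 and 0.0871, IREB2 0.0156, 0.0414, 0.0161, 0.0153 and 0.0153, and NCOA4 0.0858, 0.1116, 0.0853, 0.0844 and 0.0844. ALAS1 was 0.0157 with upper quartile scaling, BLVRA 0.0077 and NCOA4 0.0043 with the filter at 1 CPM, and BACH1 −0.0129 and FBXL5 −0.0082 without a filter. With a library left out, HMOX2 ran from −0.0934 to 0.0153, BLVRA from −0.1217 to 0.0457, BACH1 from −0.0459 to 0.054 and FBXL5 from −0.0252 to 0.0831. The cause of these sign changes was not tested. ACO1 and GPX4, which did not pass as reported, passed under 5 and 7 of 17 alternatives. Library size alone and upper quartile scaling moved the median of all genes by 0.11 and 0.14, and the share of calls that were higher was 61.02% and 63.19%, against 51.67% with TMM and 63.83% with limma without a filter. Without length, the FTH1 to FTL ratio was 0.123 in panobinostat and 0.176 in vehicle. With the letter as a replicate block 10541 genes passed, 5432 higher and 5109 lower, and no call among the 10 genes changed. Deviations of log2 CPM from the arm mean correlated at 0.081, −0.021 and 0.104 between same-letter libraries. Between libraries of different letters the values ran from −0.119 to 0.047. These values do not settle whether the letters pair the libraries. The labels do not state a pairing, so the main fit used none. HMOX1 in vehicle rests on 13 counts, which limits its fold.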
